A study of Oryza sativa Japonica Group with 74 samples.

Results

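The night against midday comparison in the phyB mutant of rice was made from 10 of the 74 libraries of the series. They are the libraries of the mutant (genotype OsphyB-/-, line phyb-1) taken 18 h after lights on (ZT18) or 6 h after lights on (ZT6). In long days there were 3 libraries at ZT18 and 2 at ZT6, and in short days again 3 at ZT18 and 2 at ZT6. The wild-type libraries (WT, cultivar Nipponbare) of the same times, 3 against 2 in each photoperiod, set the scale for the size of the change. All plants were 21 days old and are labelled as whole plants. Long days had 14 h of light and 10 h of dark, and short days had 10 h of light and 14 h of dark. ZT18 therefore fell 4 h after lights off in long days and 8 h after lights off in short days, while ZT6 fell in the light in both. The wider study also sampled other times of day, an elf3-1 elf3-2 line in both photoperiods and a lux line at ZT14 in short days. The labels do not say what lesion the phyB line carries, nor whether replicates came from separate plants or pools, so p-values here measure only the spread between these libraries.

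Phytochrome B is a red and far-red light receptor that is converted to its active form by light and slowly loses it in the dark. In Arabidopsis its active form acts in the nucleus, where it opposes the PIF family of transcription factors, whose closest rice relatives are the PIL proteins. Light also reaches the circadian clock, a loop of transcription factors in which LHY peaks around dawn, PRR genes follow one another through the day, and the evening complex of ELF3, ELF4 and LUX represses several day genes at night, a role described best in Arabidopsis. Many photosynthesis genes follow both the clock and the light, so a comparison of night with midday reads both together.

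The 20 libraries held 25.7 to 42.4 M gene counts each, and the 10 phyB libraries held 30.4 to 42.3 M. Levels below are CPM, gene counts as a share of each library's total, after scaling by the trimmed mean of M values (TMM), and each change is a log2 fold change of ZT18 over ZT6, positive where the gene was higher at night. Replicate 1 of every ZT6 group was left out as doubted. On a scale made from ZT18 marker genes of phyB, where other genotypes lie at 0 and phyB at 1, the 4 retained phyB ZT6 libraries lay at 0.978 to 1.01 and the 4 retained WT ZT6 libraries at 0 to 0.0203. The replicate 1 libraries labelled phyB lay at -0.00199 to 0, and those labelled WT at 0.986 to 0.987. On the matching scale for elf3-1 elf3-2, the replicate 1 libraries labelled phyB lay at 1.07 to 1.08. The doubted libraries thus went against their labels, and the values below leave them out. Kept under their labels, they left 843 long day and 130 short day genes whose change differed between phyB and WT, against 5088 and 2588 without them. The label says whole plants, and root and meristem markers were mixed. Of 6 root genes, RCc3 had 0 CPM in all 20 libraries, AMT1;2, NRT2.1 and LSI2 stayed at or below 0.387 CPM, and NRAMP5 (2.17 to 7.82 CPM) and LSI1 (8.46 to 24.2 CPM), transporters of metals and silicon, were present. Of 4 genes of dividing cells and meristems, OSH1 had 0 CPM in all 20 libraries and OSH15 at most 0.268 CPM, while CDKB2;1 had 0.476 to 1.53 CPM and PCNA 10.8 to 19.4 CPM. Summed over the 6 root genes, the level was 14.9 to 16.7 CPM at ZT18 against 23.9 to 26.4 CPM at ZT6 in phyB long days, which was almost wholly LSI1 and NRAMP5, and its part in other results was not tested. In tissue of mixed cells, a lower transcript level from fewer cells of a type and from less RNA per cell cannot be told apart.

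PHYB itself was transcribed in the mutant. In long days its level was 93.1, 99.0 and 87.9 CPM at ZT18 and 70.0 and 72.5 CPM at ZT6 in phyB. In WT it was 135, 124 and 128 CPM at ZT18 and 69.5 and 77.8 CPM at ZT6. In long days the mutant and WT libraries did not overlap at ZT18 and did at ZT6. The night rise was smaller in phyB, with a log2 change of 0.39 ± 0.079 (standard error) against 0.80 ± 0.079 in WT (adjusted p = 0.0116 for the difference), a call lost without WT ZT6 replicate 2 of long days and on TPM. In short days the phyB change was 0.65 ± 0.079 and that of WT 0.65 ± 0.078, and the difference did not pass the test (adjusted p = 1.0). The short day levels were lower in phyB than in WT at both times, without overlap. They were 119, 110 and 122 CPM at ZT18 and 68.9 and 79.5 CPM at ZT6 in phyB. In WT they were 157, 162 and 166 CPM at ZT18 and 101 and 105 CPM at ZT6. A transcript count does not show whether the receptor is made.

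The mutant changed between midday and night about as widely as WT. In long days 11671 of 26526 genes tested (44.0%) passed the threshold of an adjusted p of 0.05 in phyB, 5918 higher at ZT18 (22.3%) and 5753 lower (21.7%). In WT long days 11660 passed, 6270 higher (23.6%) and 5390 lower (20.3%). In short days 12833 genes (48.4%) passed in phyB, 6608 higher (24.9%) and 6225 lower (23.5%), against 13215 in WT, 6540 higher (24.7%) and 6675 lower (25.2%). The median absolute log2 change over all genes was 0.409 in phyB and 0.406 in WT in long days, and 0.466 in phyB and 0.480 in WT in short days. Between single pairs of 1 ZT18 and 1 ZT6 library, on log2 of CPM plus 0.5, that median ran from 0.331 to 0.386 in phyB and from 0.343 to 0.359 in WT in long days. In short days it ran from 0.374 to 0.403 in phyB and from 0.386 to 0.434 in WT, so the genotypes overlapped in both photoperiods. Genes past 2-fold numbered 5636 in phyB and 5506 in WT in long days, and 5964 in phyB and 6184 in WT in short days. The median log2 change over all genes was 0.05 in phyB long days and 0.04 in phyB short days. On the deposited TPM values this median moved to 0.40 and 0.32, and limma called 13919 genes higher and 2553 lower in phyB long days and 11852 higher and 3121 lower in phyB short days. In WT it called 10932 higher and 2884 lower in long days, and 11032 higher and 3567 lower in short days. The sign of a small change therefore depends on the scaling, and the ratio of the phyB median to the WT median in long days, 1.01 on counts, was 1.25 on TPM.

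The genes and the amounts differed in part. In long days 7478 genes passed the test in both genotypes, 64.1% of the calls of each, and 683 of these had opposite signs. In short days 9567 genes passed in both, 74.5% of the phyB calls and 72.4% of the WT calls, with 248 of opposite sign. The test of the difference itself called 5088 genes in long days (19.2%), 2155 with the more positive change in phyB (8.12%) and 2933 with the more negative (11.1%). It called 2588 genes in short days (9.76%), 1258 more positive (4.74%) and 1330 more negative (5.01%). Of the 5088 genes, 2525 had the larger absolute change in phyB and 2563 in WT. Of the 2588 genes, 1191 had the larger absolute change in phyB and 1397 in WT. The long day difference called 3998 genes more positive and 2351 more negative on TPM. The short day count dropped to 1674 without phyB ZT6 replicate 2 and to 1647 without phyB ZT6 replicate 3. Across 26526 genes the phyB and WT changes had Pearson r = 0.464 in long days and 0.557 in short days, a description over genes that share libraries.

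Among 138 genes listed by function, 129 passed the low count filter. In phyB long days 20 of the 129 were higher at night and 70 were lower, and in short days 29 were higher and 64 lower. Over all genes tested, 22.3% were higher and 21.7% lower in phyB long days, and 24.9% and 23.5% in short days. In WT these shares were 23.6% and 20.3% in long days and 24.7% and 25.2% in short days. The count of each list below stands beside these shares, and no list was tested as a set. Many of the listed genes serve photosynthesis, so the list counts describe the lists and not the genome.

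**Figure D1:**
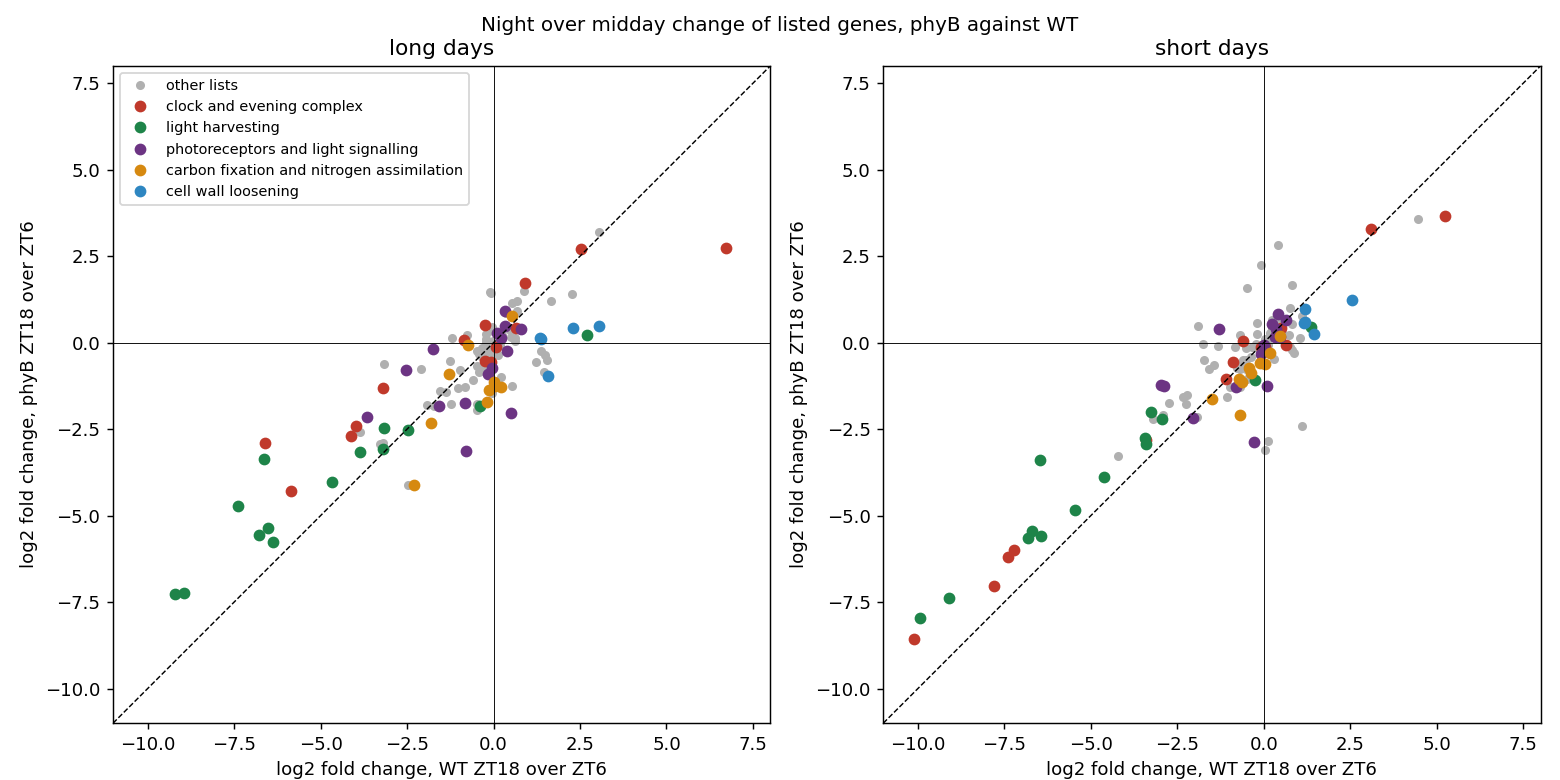
Log2 fold change of ZT18 over ZT6 in phyB (vertical axis) and in WT (horizontal axis) for 123 listed genes, in long days (left) and short days (right). The dashed line marks equal change, and 6 tested genes with a group at 3 or fewer counts are left out. Most light harvesting and clock genes that fell at night lie above the line, meaning that the fall was smaller in phyB, such as CAB2R at -3.35 in phyB and -6.63 in WT in long days.

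The pseudo-response regulator genes PRR37, PRR73 and PRR95, whose Arabidopsis relatives repress other clock genes in sequence through the day, fell at night in phyB, as did GI, and by less than in WT in both photoperiods. PRR73 (Os03g0284100) had 28.6, 26.6 and 29.5 CPM at ZT18 and 545 and 554 CPM at ZT6 in phyB long days, and 19.6, 18.7 and 20 CPM at ZT18 and 1120 and 1120 CPM at ZT6 in WT long days. The mutant libraries were higher than WT at night and lower at midday, with no overlap. Its log2 change was -4.28 ± 0.10 in phyB and -5.85 ± 0.11 in WT, a difference of 1.57 ± 0.15 (adjusted p = 3.69e-07). In short days PRR73 had 1.79, 1.47 and 2.62 CPM at ZT18 and 740 and 767 CPM at ZT6 in phyB, and its change was -8.57 ± 0.14 in phyB against -10.11 ± 0.15 in WT.

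PRR95 (Os09g0532400) differed most among the clock genes in long days. It had 44.3, 45.8 and 41.3 CPM at ZT18 and 336 and 318 CPM at ZT6 in phyB, and 4.55, 3.64 and 3.09 CPM at ZT18 and 353 and 367 CPM at ZT6 in WT. The midday levels of the genotypes lay close together, while at night the lowest phyB library was far above the highest WT library. The log2 change was -2.90 ± 0.088 in phyB and -6.61 ± 0.11 in WT, a difference of 3.71 ± 0.14 (adjusted p = 3.71e-11). In short days PRR95 had 3.38, 2.97 and 4.16 CPM at ZT18 in phyB and 2.29, 2.27 and 2.21 CPM at ZT18 in WT, and the difference between the changes was 0.77 ± 0.18 (adjusted p = 0.00886). The gap between genotypes at night was thus large 4 h into the dark and small 8 h into it, in different photoperiods.

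GI, a partner of the FKF1 photoreceptor in the photoperiod pathway of Arabidopsis, had 285, 297 and 264 CPM at ZT18 and 743 and 661 CPM at ZT6 in phyB long days. In WT long days it had 162, 165 and 155 CPM at ZT18 and 1500 and 1460 CPM at ZT6. The mutant was higher at night and lower at midday, without overlap. The log2 change was -1.31 ± 0.086 in phyB and -3.20 ± 0.089 in WT (difference 1.89 ± 0.12, adjusted p = 8.63e-09), and in short days -5.99 ± 0.10 in phyB and -7.22 ± 0.11 in WT (difference 1.23 ± 0.14, adjusted p = 1.14e-05). PRR37, a regulator that delays flowering of rice in long days, changed by -2.71 ± 0.10 in phyB and -4.11 ± 0.10 in WT in long days, and by -6.19 ± 0.13 in phyB and -7.39 ± 0.13 in WT in short days. Both PRR37 differences passed, at 1.4 in long days and 1.2 in short days. With the other groups of the series added to the fit, the short day differences of PRR37, PRR73 and PRR95 no longer passed.

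LHY (Os08g0157600), the dawn transcription factor, was higher at night in phyB than in WT. It had 425, 467 and 419 CPM at ZT18 and 2410 and 2270 CPM at ZT6 in phyB long days, and 115, 127 and 113 CPM at ZT18 and 1800 and 1940 CPM at ZT6 in WT long days. All phyB libraries were above all WT libraries at the same time. The change was -2.42 ± 0.097 in phyB and -3.98 ± 0.10 in WT (difference 1.56 ± 0.14, adjusted p = 2.27e-07). In short days LHY had 689, 633 and 816 CPM at ZT18 and 980 and 1130 CPM at ZT6 in phyB, a change of -0.57 ± 0.096 that did not pass on TPM, and the difference from WT did not pass (0.31 ± 0.14, adjusted p = 0.188).

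Later clock genes behaved differently from these. PRR59 had 49.4, 50.8 and 48.3 CPM at ZT18 and 48.8 and 45.9 CPM at ZT6 in phyB long days, with no change that passed (0.064 ± 0.065), whereas WT fell by 0.86 (difference 0.93 ± 0.092, adjusted p = 8.72e-07). TOC1, which closes the clock loop in the evening in Arabidopsis, had 49.1, 49.4 and 51.8 CPM at ZT18 and 37.1 and 34.0 CPM at ZT6 in phyB long days. It was higher at night in phyB (0.50 ± 0.080) and lower in WT (-0.25 ± 0.080), a difference of 0.75 ± 0.11 (adjusted p = 9.69e-05). FKF1, a blue light receptor of the ZTL family, had 23.1, 23.0 and 22.7 CPM at ZT18 and 7.98 and 5.99 CPM at ZT6 in phyB long days, and 7.43, 7.68 and 7.72 CPM at ZT18 and 4.16 and 3.91 CPM at ZT6 in WT long days. Its rise was 1.73 ± 0.11 in phyB and 0.92 ± 0.14 in WT (difference 0.81 ± 0.18, adjusted p = 0.00359), a difference that did not pass when the other groups of the series entered the fit. ZTL1 and ZTL2, its relatives, changed by -0.56 and -0.53 in phyB long days, calls that did not pass on TPM.

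Counted over the list, 7 of 10 clock genes fell at night in phyB long days and 2 rose, with a median log2 change of -0.94, against 8 falls and 1 rise with a median of -2.03 in WT. In phyB short days 7 fell (median -1.94, against -2.26 in WT). The difference was positive and passed for 8 of 10 genes in long days and for 5 of 10 in short days. For 2 in long days, ZTL1 and ZTL2, it was negative. The ZTL2 call was lost on TPM, with the low count filter relaxed, and on leaving out any of several single libraries. Over all genes the difference was positive and passed for 8.12% in long days and 4.74% in short days. With the other groups in the fit the difference was positive and passed for 7 clock genes in long days and 2 in short days. On TPM the clock counts in phyB were 3 higher and 5 lower in long days, and 3 higher and 6 lower in short days.

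**Figure D2:**
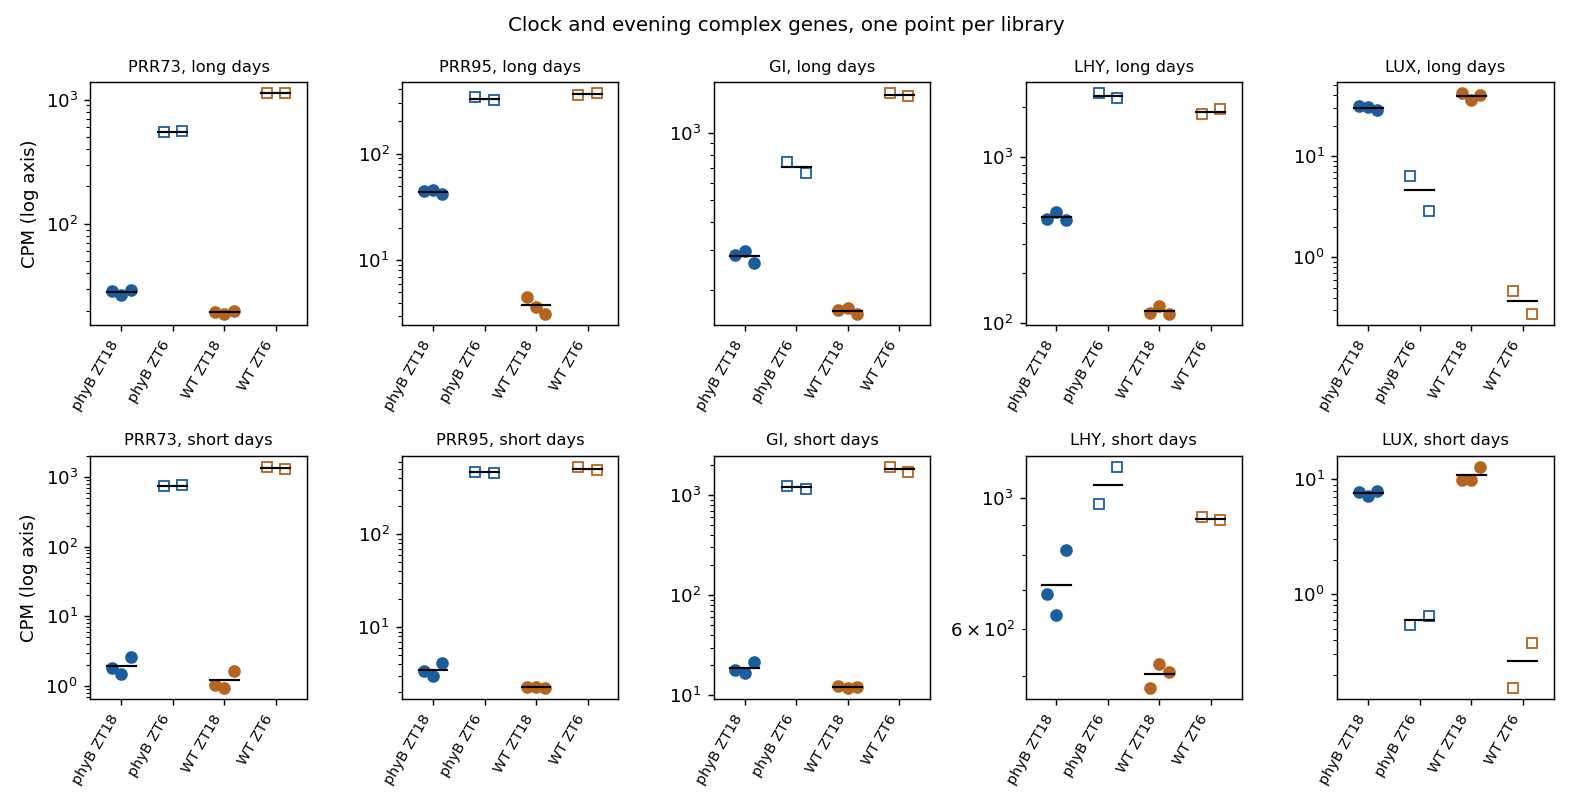
CPM (log axis) of PRR73, PRR95, GI, LHY and LUX in each phyB and WT library at ZT18 and ZT6, in long days (top) and short days (bottom), with 1 point per library and a bar at the group mean. The distance between night and midday is smaller in phyB than in WT for PRR73, PRR95 and GI, and LUX at ZT6 in long days is 6.37 and 2.84 CPM in phyB against 0.470 and 0.273 CPM in WT.

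Of the evening complex, LUX, its DNA-binding subunit, rose at night in phyB by less than in WT. In long days LUX (Os01g0971800) had 30.9, 30.2 and 28.6 CPM at ZT18 and 6.37 and 2.84 CPM at ZT6 in phyB, and 41.5, 35.4 and 39.6 CPM at ZT18 and 0.470 and 0.273 CPM at ZT6 in WT. The mutant was higher than WT at midday and lower at night, and its 2 midday libraries lay far apart. The log2 change was 2.75 ± 0.20 in phyB and 6.73 ± 0.30 in WT, a difference of -3.98 ± 0.46 (adjusted p = 4.55e-06). In short days LUX had 7.77, 7.18 and 7.87 CPM at ZT18 and 0.542 and 0.652 CPM at ZT6 in phyB, and the difference of -1.60 ± 0.75 did not pass (adjusted p = 0.219). ELF3-2, a scaffold of the complex, had 69.4, 69.5 and 68.4 CPM at ZT18 and 11.6 and 9.70 CPM at ZT6 in phyB long days. Its rise of 2.70 ± 0.080 in phyB long days and 3.29 ± 0.083 in phyB short days stood beside 2.54 ± 0.078 and 3.10 ± 0.080 in WT, and neither difference passed (adjusted p = 0.349 and 0.358). ELF3-1 changed by -0.11 ± 0.071 in phyB long days, with no call on counts and a call of 0.32 on TPM, and rose by 0.42 ± 0.072 in phyB short days. ELF4a had 37.2, 6.53 and 37.0 CPM at ZT18 in phyB short days. Replicate 2 stood apart there, and without it the change was 0.40 and passed the test, against -0.057 ± 0.44 with it. In all, 2 of 4 members rose in phyB long days (4 on TPM) and 3 of 4 in phyB short days (3 on TPM).

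The chlorophyll-binding proteins of the light harvesting antennae had the lowest median change of the lists. In phyB 13 of 14 light harvesting genes fell at night in each photoperiod, with a median log2 change of -3.69 in long days and -3.62 in short days. In WT 13 of 14 also fell, with medians of -5.52 and -5.04. The fall was smaller in phyB for 10 genes in long days and 10 in short days by the test of the difference. When the other groups of the series entered the fit, it was smaller for 7 and 5. Of all genes tested, 8.12% had a positive difference that passed in long days and 4.74% in short days. Summed over the list, the level was 1670 to 1850 CPM at ZT18 and 25400 to 26900 CPM at ZT6 in phyB long days, and 897 to 1040 CPM at ZT18 and 25900 to 27900 CPM at ZT6 in WT long days. In long days the midday sums of the genotypes overlapped, and the night sums did not. In short days neither did. There the sum was 2490 to 2760 CPM at ZT18 and 33900 to 36600 CPM at ZT6 in phyB. In WT short days it was 1600 to 1860 CPM at ZT18 and 40500 to 51900 CPM at ZT6, so phyB was higher at night and lower at midday. Reads may be shared among the more alike of these genes. How reads matching several copies were counted is not given in the sources used here.

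CAB1R (Os09g0346500), a chlorophyll a/b-binding protein of photosystem II, had 16.8, 16.4 and 18.8 CPM at ZT18 and 2590 and 2760 CPM at ZT6 in phyB long days, and 6.47, 7.04 and 4.77 CPM at ZT18 and 3720 and 3430 CPM at ZT6 in WT long days. Its change of -7.27 ± 0.25 in phyB stood against -9.21 ± 0.27 in WT (adjusted p = 0.000465 for the difference). CAB2R, of the same antenna, had 322, 305 and 328 CPM at ZT18 and 3180 and 3300 CPM at ZT6 in phyB long days, and 30.3, 23.5 and 26.2 CPM at ZT18 and 2780 and 2470 CPM at ZT6 in WT long days. The mutant kept over 300 CPM at night where no WT library reached 31 CPM. The difference was 3.28 ± 0.20 in long days (adjusted p = 3.03e-09) and 3.10 ± 0.19 in short days (adjusted p = 3.62e-08). LHCA3, of the photosystem I antenna, had 105, 122 and 91.8 CPM at ZT18 and 3010 and 2640 CPM at ZT6 in phyB long days, a change of -4.73 ± 0.17 against -7.40 ± 0.20 in WT, while the short day difference of 0.60 ± 0.23 did not pass.

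A pair of minor photosystem I antenna genes had a negative difference, LHCA5 with a larger fall in phyB and LHCA6 with a change nearer 0 than in WT. LHCA5 had 40.5, 47.5 and 43.4 CPM at ZT18 and 156 and 158 CPM at ZT6 in phyB long days, and 66.3, 64.9 and 69.6 CPM at ZT18 and 83.0 and 90.8 CPM at ZT6 in WT long days. Its fall was larger in phyB, at -1.84 ± 0.091 against -0.38 ± 0.092 in WT (difference -1.46 ± 0.13, adjusted p = 2.31e-07). LHCA6 had 49.8, 52.2 and 53.0 CPM at ZT18 and 41.6 and 46.6 CPM at ZT6 in phyB long days, and 73.7, 71.2 and 77.1 CPM at ZT18 and 11.3 and 11.4 CPM at ZT6 in WT long days. The change of 0.23 ± 0.091 in phyB did not pass (adjusted p = 0.0531), although it did on TPM at 0.66, and stood against a rise of 2.70 ± 0.11 in WT, and the difference passed (-2.48 ± 0.14, adjusted p = 1.33e-09).

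Genes of chlorophyll synthesis fell at night in phyB in 9 of 11 cases in long days (median -1.29) and 8 of 11 in short days (median -0.76). In WT 7 fell and 3 rose in long days, and 8 fell and 2 rose in short days. CHLH, the large subunit of magnesium chelatase, had 224, 273 and 201 CPM at ZT18 and 1510 and 1940 CPM at ZT6 in phyB long days, a change of -2.89 ± 0.12 against -3.20 ± 0.12 in WT that did not differ by the test (adjusted p = 0.232). In short days its fall was smaller in phyB, at -2.20 ± 0.12 against -3.19 ± 0.12 (adjusted p = 0.000719). YGL1, the chlorophyll synthase, had 85.2, 101 and 78.9 CPM at ZT18 and 123 and 106 CPM at ZT6 in phyB long days, and 110, 117 and 97.3 CPM at ZT18 and 40.2 and 37.0 CPM at ZT6 in WT long days. The phyB change was -0.37 ± 0.11 on counts and 0.056 on TPM, while WT rose by 1.49 ± 0.12, and the difference was -1.86 ± 0.16 (adjusted p = 1.78e-07). The phyB call on counts was lost without phyB ZT6 replicate 2 or ZT18 replicate 3 of long days. CHLD, another magnesium chelatase subunit, had 124, 138 and 117 CPM at ZT18 and 143 and 154 CPM at ZT6 in phyB long days, and 157, 148 and 125 CPM at ZT18 and 62.2 and 49.2 CPM at ZT6 in WT long days. Its difference was -1.60 ± 0.16 (adjusted p = 8.37e-07). CHLM, the methyltransferase that follows the chelatase, had 12.8, 15.5 and 14.0 CPM at ZT18 and 30.7 and 36.6 CPM at ZT6 in phyB long days, and 23.3, 22.4 and 23.4 CPM at ZT18 and 16.3 and 15.6 CPM at ZT6 in WT long days. It was lower at night in phyB and higher at night in WT, a difference of -1.79 ± 0.16.

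PORA, a light-dependent protochlorophyllide reductase known from dark-grown seedlings, was high in phyB at both times. It had 840, 982 and 752 CPM at ZT18 and 954 and 1690 CPM at ZT6 in phyB long days, and 40.1, 22.8 and 30.2 CPM at ZT18 and 317 and 234 CPM at ZT6 in WT long days. The night change did not pass in phyB (-0.62 ± 0.39, adjusted p = 0.213) and did in WT (-3.16 ± 0.42), and the difference passed (2.54 ± 0.58, adjusted p = 0.00706).

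All 4 listed genes of carbon fixation fell at night in phyB, in long days (median -1.5) and in short days (median -0.98). On TPM 3 of 4 fell in phyB short days, where the RBCS3 call was lost. In WT 1 of 4 fell in long days and 3 of 4 in short days. RBCS2, a small subunit of Rubisco, had 1140, 1360 and 941 CPM at ZT18 and 4120 and 3350 CPM at ZT6 in phyB long days, and 1950, 1950 and 1550 CPM at ZT18 and 2150 and 2010 CPM at ZT6 in WT long days. The mutant was lower at night and higher at midday than WT, with no overlap. The change was -1.70 ± 0.17 in phyB and -0.19 ± 0.17 in WT (difference -1.51 ± 0.24, adjusted p = 0.000192). RBCS3 and RBCS4 differed by -1.16 ± 0.25 and -1.52 ± 0.27 in long days. RBCS copies are nearly identical, so reads may be split among them. RCA, which activates Rubisco, changed by -2.33 in phyB and -1.80 in WT in long days, a difference that did not pass (adjusted p = 0.079).

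**Figure D3:**
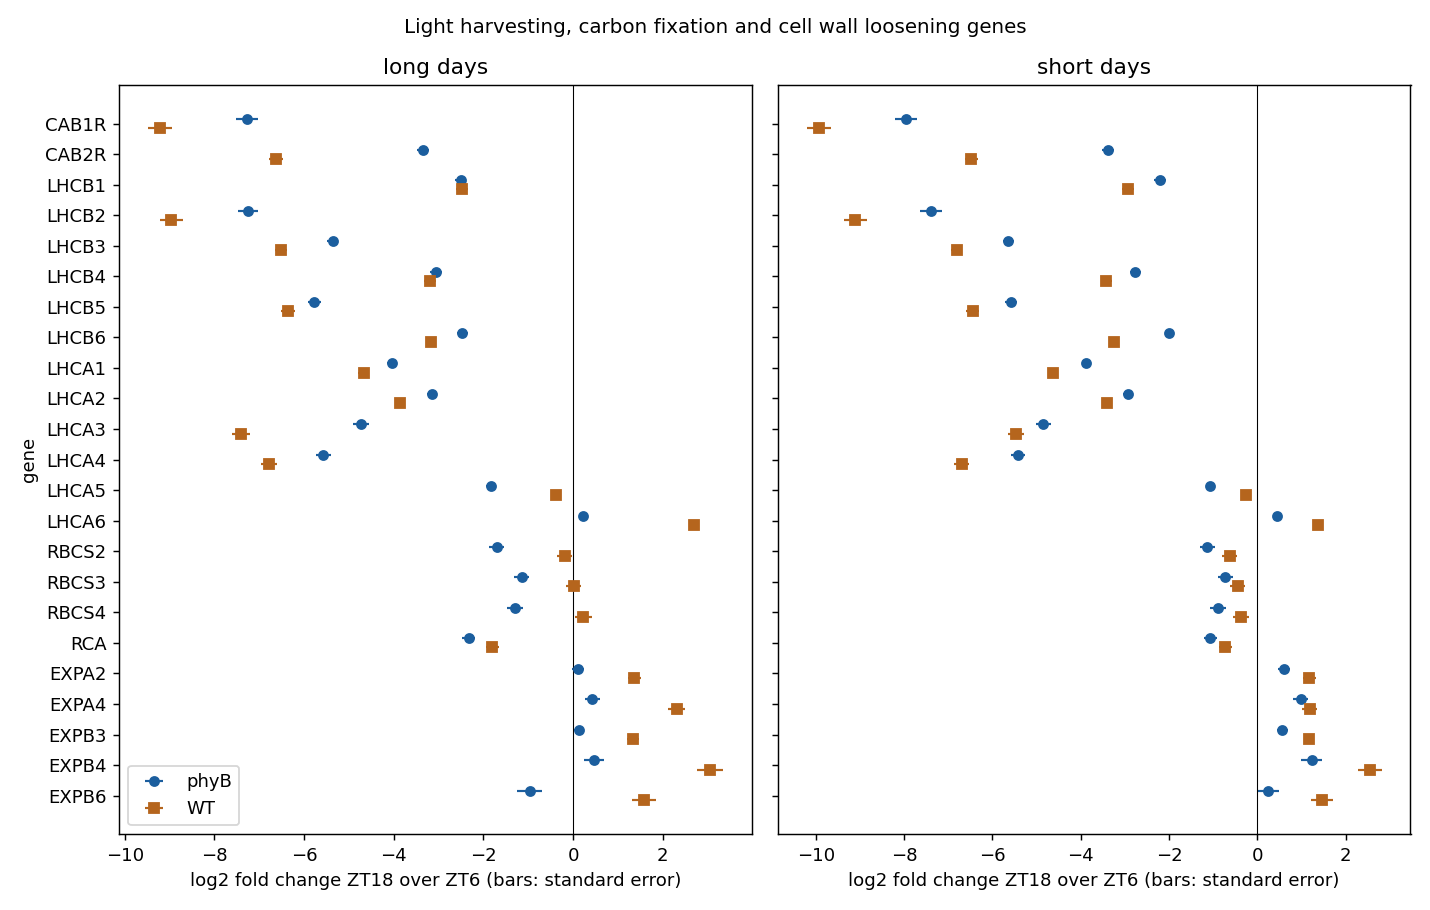
Log2 fold change of ZT18 over ZT6 with its standard error in phyB (circles) and WT (squares) for each light harvesting, carbon fixation and cell wall loosening gene, in long days (left) and short days (right). In phyB most antenna genes lie nearer 0 than in WT, the RBCS genes lie farther below 0, and the expansin genes lie nearer 0 in long days.

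Among genes of nitrogen assimilation, in phyB 4 of 6 genes fell at night in long days (median -1.07) and 4 of 6 in short days (median -0.61). In WT 3 and 2 fell. The share of all genes that fell was 21.7% in phyB long days and 23.5% in phyB short days. NIA1, a nitrate reductase, had 38.3, 40.0 and 31.5 CPM at ZT18 and 631 and 623 CPM at ZT6 in phyB long days, and 76.0, 78.0 and 106 CPM at ZT18 and 442 and 410 CPM at ZT6 in WT long days. The mutant was lower at night and higher at midday, and its fall was larger, at -4.10 ± 0.13 against -2.29 ± 0.12 (difference -1.80 ± 0.17, adjusted p = 5.69e-07). In short days the NIA1 fall was -2.08 ± 0.12 in phyB and -0.69 ± 0.12 in WT (adjusted p = 3.25e-05). GS2, the chloroplast glutamine synthetase, fell by 1.37 in phyB long days with no call in WT (-0.13 ± 0.089, difference -1.24 ± 0.13, adjusted p = 1.25e-06). Fd-GOGAT, the ferredoxin-dependent glutamate synthase, had 2010, 2140 and 1750 CPM at ZT18 and 5040 and 4270 CPM at ZT6 in phyB long days, and 3300, 3290 and 2510 CPM at ZT18 and 3030 and 2840 CPM at ZT6 in WT long days. Its difference was -1.29 ± 0.18 (adjusted p = 4.32e-05).

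Starch and sucrose genes fell in 8 of 12 cases in phyB in each photoperiod, against 7 of 12 in WT in each. The phyB medians were -0.51 in long days and -0.63 in short days. Of all genes, 21.7% fell in phyB long days and 23.5% in phyB short days. On TPM 6 of the 12 fell and 4 rose in phyB in each photoperiod. GBSSII, the granule-bound starch synthase of leaves, had 337, 325 and 309 CPM at ZT18 and 2000 and 1850 CPM at ZT6 in phyB long days, and its fall of -2.57 ± 0.10 was smaller than the -3.87 ± 0.11 of WT (difference 1.29 ± 0.15, adjusted p = 4.57e-06). AGPL3, a large subunit of ADP-glucose pyrophosphorylase, fell by 1.46 in phyB long days, with no call in WT (-0.038 ± 0.085, difference -1.42 ± 0.12, adjusted p = 1.35e-07). The small subunit AGPS2 likewise fell further in phyB, by 1.76 against 0.47 in WT. Another large subunit gene, AGPL1, had 176, 156 and 175 CPM at ZT18 and 128 and 178 CPM at ZT6 in phyB long days, with overlapping groups, and 24.5, 19.1 and 23.2 CPM at ZT18 and 55.7 and 47.1 CPM at ZT6 in WT long days. Its difference was 1.35 ± 0.23 (adjusted p = 0.000474).

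The PIL genes, which encode relatives of the Arabidopsis PIFs, followed different patterns. PIL15 (Os01g0286100) had 89.2, 87.9 and 83.8 CPM at ZT18 and 363 and 350 CPM at ZT6 in phyB long days, and 23.0, 19.3 and 22.7 CPM at ZT18 and 17.2 and 13.2 CPM at ZT6 in WT long days. The mutant was above WT at both times and fell at night, while WT was low throughout. The change was -2.03 ± 0.091 in phyB and 0.51 ± 0.11 in WT, a difference of -2.55 ± 0.14 (adjusted p = 1.47e-09), and in short days the difference was -1.33 ± 0.14 (adjusted p = 7.25e-06). PIL16 had 15.4, 17.3 and 15.9 CPM at ZT18 and 144 and 138 CPM at ZT6 in phyB long days, against 5.23, 3.94 and 3.68 CPM at ZT18 and 7.62 and 7.08 CPM at ZT6 in WT long days. Its fall was -3.12 ± 0.12 in phyB and -0.80 ± 0.17 in WT (difference -2.32 ± 0.21, adjusted p = 3.03e-07), with -2.86 ± 0.12 in phyB short days.

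PIL11, PIL12 and PIL13 had a night change that was nearer 0 in phyB than in WT. PIL13 had 18.3, 19 and 20.3 CPM at ZT18 and 82.7 and 88.8 CPM at ZT6 in phyB long days, and 17.5, 14.5 and 15.5 CPM at ZT18 and 205 and 193 CPM at ZT6 in WT long days. The midday libraries of the mutant were far below those of WT. The change was -2.16 ± 0.13 in phyB and -3.66 ± 0.13 in WT (difference 1.49 ± 0.18, adjusted p = 9.78e-06). PIL12 differed by 1.75 ± 0.14 in long days and 1.75 ± 0.15 in short days. PIL11 had 15.8, 15.6 and 16.2 CPM at ZT18 and 18.8 and 17.3 CPM at ZT6 in phyB long days, a change of -0.18 ± 0.11 on counts that did not pass and 0.23 on TPM, whereas WT fell by 1.75 (difference 1.56 ± 0.15, adjusted p = 7.80e-07). PIL14 differed from both sets and rose at night in both genotypes. It had 34.5, 34.7 and 35.4 CPM at ZT18 and 18.4 and 18.2 CPM at ZT6 in phyB long days, and 37.4, 37.8 and 35.7 CPM at ZT18 and 28.9 and 30.1 CPM at ZT6 in WT long days. Its rise was 0.93 ± 0.077 in phyB and 0.33 ± 0.073 in WT in long days (difference 0.61 ± 0.11, adjusted p = 0.000399). In short days it was 0.55 ± 0.078 in phyB and 0.25 ± 0.073 in WT, and the difference did not pass (adjusted p = 0.088).

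Among other light signalling genes, COP1, a ubiquitin ligase that in Arabidopsis removes light-promoting factors in the dark, had 65.7, 65.5 and 58.8 CPM at ZT18 and 236 and 189 CPM at ZT6 in phyB long days. Its fall was -1.74 ± 0.10 in phyB and -0.83 ± 0.10 in WT (difference -0.91 ± 0.15, adjusted p = 0.000194). CRY2, a blue light receptor, had 27.9, 28.4 and 26.1 CPM at ZT18 and 89.3 and 105 CPM at ZT6 in phyB long days, and its fall of -1.82 ± 0.080 did not differ from that of WT by the test (-1.57 ± 0.080, adjusted p = 0.13). CRY1a fell by 0.90 in phyB long days with no call in WT (difference -0.73 ± 0.11, adjusted p = 9.06e-05). PHYA, the far-red receptor, had 117, 122 and 103 CPM at ZT18 and 130 and 141 CPM at ZT6 in phyB long days, a change of -0.25 ± 0.077 on counts that was 0.18 on TPM and did not pass there. Of all genes, 22.3% rose and 21.7% fell in phyB long days, and 24.9% rose and 23.5% fell in phyB short days. Over the 15 genes of the list, 4 rose and 9 fell in phyB long days, and 6 rose and 7 fell in short days. Differences from WT were negative for 7 and positive for 4 in long days, with 3 of each in short days. Over all genes tested, 11.1% were negative and 8.12% positive in long days, and 5.01% and 4.74% in short days. On TPM 6 rose and 8 fell in phyB long days, and 8 rose and 6 fell in phyB short days.

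**Figure D4:**
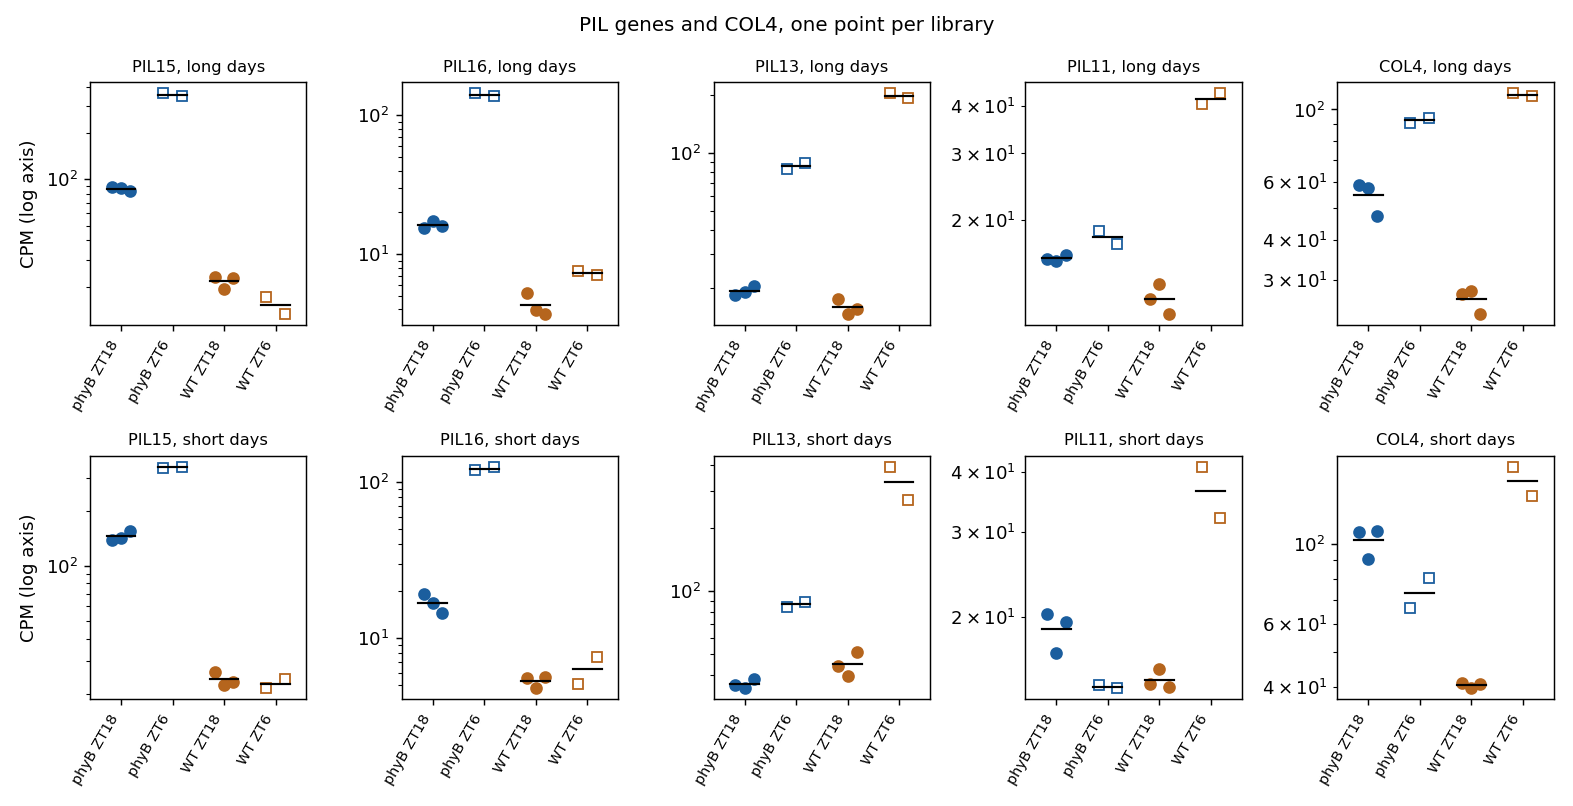
CPM (log axis) of PIL15, PIL16, PIL13, PIL11 and COL4 in each phyB and WT library at ZT18 and ZT6, in long days (top) and short days (bottom), with 1 point per library and a bar at the group mean. PIL15 at ZT6 in long days is 363 and 350 CPM in phyB against 17.2 and 13.2 CPM in WT, while PIL13 at ZT6 is lower in phyB than in WT.

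Of 5 cell wall loosening genes, all expansins, 1 rose and 1 fell at night in phyB long days (median 0.13), and on TPM 4 rose. The rise, that of EXPA4, was lost without phyB ZT18 replicate 1 or 2 of long days, among other settings. The fall, that of EXPB6, was lost on TPM, among other settings. In phyB short days 4 rose (median 0.61). In WT all 5 rose in each photoperiod (medians 1.58 and 1.19). The phyB change was the more negative by the test of the difference for all 5 in long days and for 3 in short days. Over all genes tested it was so for 11.1% in long days and 5.01% in short days. EXPB4 had 15.9, 18 and 21.8 CPM at ZT18 and 12.9 and 13.9 CPM at ZT6 in phyB long days, and 21.3, 23.6 and 21.5 CPM at ZT18 and 2.45 and 2.84 CPM at ZT6 in WT long days. The mutant libraries at midday lay above all WT midday libraries. The difference was -2.59 ± 0.38 in long days (adjusted p = 8.85e-05) and -1.33 ± 0.36 in short days (adjusted p = 0.0253). EXPA4 had 44.3, 45.6 and 40.0 CPM at ZT18 and 27.4 and 36.3 CPM at ZT6 in phyB long days, with a difference of -1.87 ± 0.25 (adjusted p = 3.67e-05). The 3 short day differences of the list, those of EXPB3, EXPB4 and EXPB6, were each lost on leaving out any of several short day libraries, phyB ZT6 replicate 3 among them, and when all groups of the series entered the fit.

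Genes of gibberellin synthesis and breakdown were mixed. Of 13, 2 were higher and 6 lower in phyB long days, and 4 higher and 4 lower in phyB short days. Over all genes 44.0% were called in either direction in phyB long days and 48.4% in phyB short days. On TPM 7 of the 13 were higher and 4 lower in each photoperiod. GA20ox2, the SD1 enzyme of gibberellin synthesis whose loss gives semidwarf rice, had 21.8, 21.0 and 20.8 CPM at ZT18 and 80.7 and 64.2 CPM at ZT6 in phyB long days, and 6.47, 6.74 and 7.06 CPM at ZT18 and 18.7 and 13.2 CPM at ZT6 in WT long days. The fall of -1.77 ± 0.13 in phyB and -1.22 ± 0.16 in WT did not differ by the test (adjusted p = 0.072), although every phyB library was above every WT library. GA2ox6, which inactivates gibberellins, had 0.804, 0.960 and 0.728 CPM at ZT18 and 5.42 and 6.43 CPM at ZT6 in phyB short days, while no WT short day library was above 0.229 CPM. GA3ox2, the enzyme of the last step of synthesis, fell by 1.95 in phyB long days and by 3.09 in phyB short days, with no call in WT, and the difference passed in short days (-3.12 ± 0.74, adjusted p = 0.0106), a call lost without WT ZT18 replicate 3 of short days. GA3ox1 had 0 counts in all 20 libraries.

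Ghd7 and Hd1, both placed here in the list of flowering repressors, changed in phyB in the same direction as in WT. Neither long day difference passed. Hd1, the rice CONSTANS, had 16.4, 12.8 and 13.4 CPM at ZT18 and 1.39 and 1.65 CPM at ZT6 in phyB long days, a rise of 3.21 ± 0.19 against 3.05 ± 0.17 in WT (adjusted p = 0.791 for the difference). Ghd7, a repressor of Ehd1 in long days, had 0.0519, 0.0414 and 0.107 CPM at ZT18 and 1.05 and 1.39 CPM at ZT6 in phyB long days. Its fall was -4.13 ± 0.60 in phyB and -5.30 ± 0.56 in WT (adjusted p = 0.577 for the difference). COL4, a CONSTANS-like repressor described as acting in both photoperiods, departed from WT. It had 58.9, 57.5 and 47.3 CPM at ZT18 and 90.9 and 94.3 CPM at ZT6 in phyB long days, and 27.2, 27.9 and 23.6 CPM at ZT18 and 112 and 110 CPM at ZT6 in WT long days. In short days it had 108, 91.1 and 109 CPM at ZT18 and 66.1 and 80.2 CPM at ZT6 in phyB, and 41.0, 39.6 and 40.8 CPM at ZT18 and 164 and 136 CPM at ZT6 in WT. It rose at night in phyB short days (0.49 ± 0.11) and fell in WT short days (-1.89 ± 0.11), a difference of 2.38 ± 0.16 (adjusted p = 7.63e-08), and in long days the difference was 1.32 ± 0.16 (adjusted p = 7.89e-06).

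Ehd1, the response regulator that promotes flowering, was low in long days. It had 0.545, 0.517 and 0.451 CPM at ZT18 and 0.786 and 1.11 CPM at ZT6 in phyB, while all 5 WT long day libraries had 0 counts, which allows up to 0.0307 CPM at ZT18 and 0.0421 CPM at ZT6 (3 counts over the group). No fold against WT is given there. In short days Ehd1 had 5.63, 5.59 and 6.52 CPM at ZT18 and 2.40 and 3.23 CPM at ZT6 in phyB, and 3.06, 2.90 and 2.82 CPM at ZT18 and 0.114 and 0.241 CPM at ZT6 in WT. As a fold, the night rise was smaller in phyB, at 1.05 ± 0.16 against 3.93 ± 0.34 (difference -2.88 ± 0.43, adjusted p = 0.000425). The WT fold rests on few counts at midday. In level, the group mean went from 2.81 CPM at ZT6 to 5.91 CPM at ZT18 in phyB, and from 0.177 to 2.93 CPM in WT. Hd3a, a florigen, had 2.06, 1.58 and 3.92 CPM at ZT18 and 4.61 and 7.20 CPM at ZT6 in phyB short days (-1.24 ± 0.32), a call lost without phyB ZT6 replicate 3 of short days. Reads of Hd3a may be shared with other members of its gene family. Of 10 tested flowering activators, 3 rose and 5 fell in phyB short days (4 and 2 on TPM). Ehd1 was the member whose change differed from WT by the test. Of all genes, 24.9% rose and 23.5% fell in phyB short days, and 9.76% differed from WT in their change.

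Among defence genes, NPR1, a co-activator of salicylic acid responses, had 31.9, 31.7 and 32.7 CPM at ZT18 and 12.3 and 10.5 CPM at ZT6 in phyB long days, and 31.3, 33.4 and 34.8 CPM at ZT18 and 18.7 and 17.1 CPM at ZT6 in WT long days. The genotypes overlapped at night and not at midday, and the rise was larger in phyB, at 1.5 ± 0.093 against 0.89 ± 0.088 (adjusted p = 0.00205). WRKY45, a transcription factor of the same pathway, had 156, 134 and 183 CPM at ZT18 and 52.6 and 63.1 CPM at ZT6 in phyB long days, a rise of 1.44 ± 0.20 with no call in WT (difference 1.52 ± 0.26, adjusted p = 0.000585). Over all genes, 22.3% rose and 21.7% fell in phyB long days, and 24.9% rose and 23.5% fell in phyB short days. Of the 5 defence genes, 3 rose and 1 fell in phyB long days, against 1 and 1 in WT. In phyB short days 4 rose and 0 fell, against 2 and 1 in WT. The fall in phyB long days was that of PBZ1, a pathogenesis-related gene (-0.52 ± 0.19, adjusted p = 0.0316), a call lost on TPM and on leaving out any of 4 phyB long day libraries, and WT fell by 1.25. SALT, a salt-induced lectin, had 16.5, 13.8 and 18.7 CPM at ZT18 and 23.1 and 22.9 CPM at ZT6 in phyB long days, and 36.1, 53.2 and 32.0 CPM at ZT18 and 15.5 and 12.5 CPM at ZT6 in WT long days (difference -2.04 ± 0.41, adjusted p = 0.00255).

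The night change of the mutant differed between photoperiods in 4256 genes (16.0%). It was more positive in long days for 1805 (6.80%) and more negative for 2451 (9.24%). On TPM, 2447 were more positive and 1934 more negative. Without phyB ZT6 replicate 2 in short days the count was 2805. Of the calls in phyB, 8276 genes passed in both photoperiods, 70.9% of the long day calls and 64.5% of the short day calls, with 3946 higher in both, 4033 lower in both and 297 of opposite sign. Of the 10 clock genes, 6 had the more positive and 3 the more negative change in long days. Among them GI had the largest difference, with changes of -1.31 in long days and -5.99 in short days, a difference of 4.68 ± 0.13 (adjusted p = 1.43e-13). FKF1 was higher at night in phyB long days (1.73 ± 0.11) and lower in phyB short days (-2.82 ± 0.14), where it had 1.93, 1.58 and 1.38 CPM at ZT18 and 10.8 and 12.1 CPM at ZT6. TOC1 likewise changed sign, at 0.50 in long days and -1.06 in short days. LHY fell further in long days, by 2.42 against 0.57. In WT, with long days first, the FKF1 changes were 0.92 and -3.41, those of GI -3.2 and -7.22, and those of TOC1 -0.25 and -1.1. The LHY changes in WT were -3.98 and -0.88. Differences by photoperiod in WT were not tested, so those of phyB are not shown to be particular to the mutant. ZT18 lies at different distances from lights off in the 2 photoperiods, so photoperiod and hours of darkness cannot be told apart here.

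The difference by photoperiod passed for 1 of 14 light harvesting genes, LHCA5 (-0.76 ± 0.13). Over all genes tested it passed for 16.0%, so the few calls are no result about the list. A missing call does not show an equal change. NIA1 fell further in long days, by 4.10 against 2.08 (difference -2.02 ± 0.17, adjusted p = 2.88e-07), and RCA by 2.33 against 1.06 (difference -1.27 ± 0.20, adjusted p = 0.000262). COL4 fell in long days and rose in short days (difference -1.25 ± 0.16, adjusted p = 2.15e-05). In WT the NIA1 change was -2.29 in long days and -0.69 in short days, and that of COL4 was -2.09 and -1.89. Those WT differences were not tested.

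**Figure D5:**
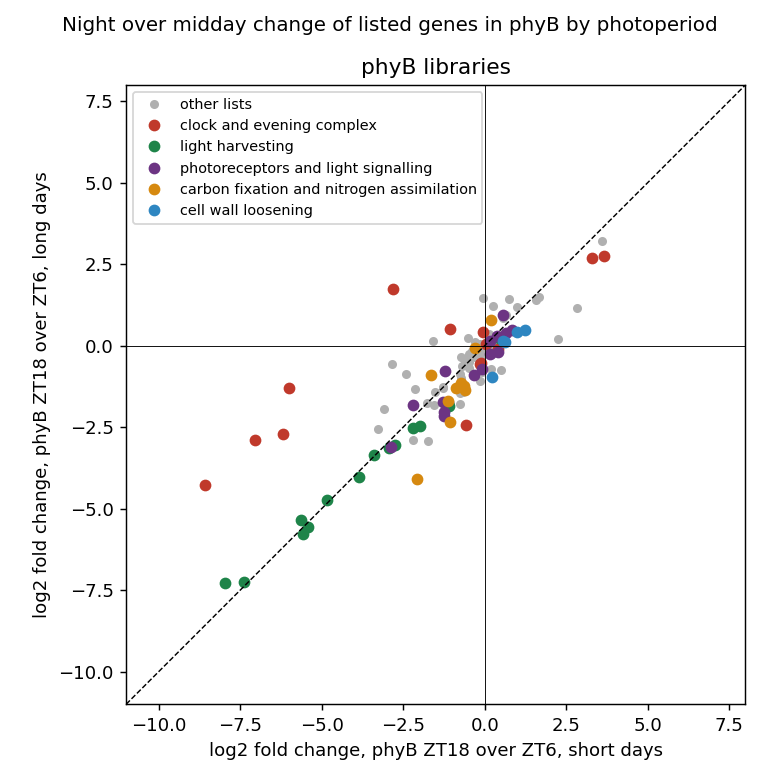
Log2 fold change of ZT18 over ZT6 in phyB in long days (vertical axis) and in short days (horizontal axis) for 123 listed genes, with a dashed line at equal change. Light harvesting genes lie along the line, whereas PRR73, PRR95, PRR37, GI and FKF1 lie above it, with GI at -1.31 in long days and -5.99 in short days.

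Ranked over all genes by the smaller of the 2 changes, with at least 10 CPM in the higher group, the largest falls in phyB included CAB1R, LHCB2, LHCB5 and LHCA4. LHCB2 changed by -7.25 in long days and -7.39 in short days. Most of the remaining genes of this ranking have identifiers that the files do not pair with names. Os03g0782200 averaged 0.799 CPM at ZT18 and 633 CPM at ZT6 in phyB long days (-9.62 ± 0.38, against -9.86 in WT). Os06g0554200 averaged 0.212 CPM at ZT18 and 13.5 CPM at ZT6 (-5.94 ± 0.31, against -7.57 in WT). Among the rises, Os06g0298200 averaged 182 CPM at ZT18 and 8.82 CPM at ZT6 in phyB long days (4.39 ± 0.14, against 5.93 in WT). Os09g0545300 averaged 14.2 CPM at ZT18 and 0.799 CPM at ZT6 (4.19 ± 0.25, against 4.21 in WT).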

How the data were processed

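RNA was extracted with an RNeasy plant kit and sequenced from NEBNext Ultra II Directional libraries, per the labels' protocols. Reads were processed with HISAT2 and StringTie on IRGSP-1.0, per the submitters' processing notes, and no version is given in the sources used here. Raw gene counts, whole numbers for 37849 genes, are used as the authors deposited them. The TPM values are those the authors deposited, and served as an alternative. Of the columns in each table, 1 was mapped to no sample and was not used. Counts of 20 libraries were filtered with filterByExpr, which left 26526 genes, and scaled by TMM. They were fitted with 8 group means (12 residual degrees of freedom) by edgeR 4.0.16 in R 4.3.3 with robust glmQLFit, and contrasts were tested with glmQLFTest. P-values were adjusted by the Benjamini-Hochberg method across the 26526 genes. Each ± after a log2 change is a standard error, computed as the change divided by the square root of its F statistic. The fit was tested on simulated data. DESeq2 1.42.0 and limma 3.58.1 (on log2 of TPM plus 1 or 0.1, keeping genes that reached 1 TPM in 2 libraries or more) served as alternatives. No pair of libraries within any of the 8 groups held identical counts, and pairs between groups were not compared in this way.

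The members and gene lists were chosen with earlier results of these data known. Named are PHYB, the clock and evening complex genes, up to 4 called members of each list by size of change, members called for a difference between changes, and the largest changes shared by both photoperiods. Of 141 listed genes, 84 matched a symbol in the RefSeq gene table at the same place, 55 had no symbol there, and 2 on another chromosome were dropped. One gene was not in the count table, which left 138. The values of a listed flowering activator are not reported here.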

Additional observations from a re-analysis of the deposited data

Results flagged for a closer look

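The change of ZT18 over ZT6 differed between phyB and WT in long days, by the test of the difference itself, for 64 named genes. The change in phyB was the more positive for 29 and the more negative for 35. List members called for such a difference were named for that reason, so the count is no result about the named genes. Over all genes tested, 19.2% differed in long days. Of these 64 calls, 54 passed under every alternative that left out the doubted ZT6 replicate 1. ZTL2 was among those lost, on TPM and on leaving out any of several single libraries. Among evening complex genes, the log2 difference (phyB minus WT, long days) was LUX -3.98. Among clock genes, the log2 difference (phyB minus WT, long days) was LHY 1.56, PRR37 1.40, PRR73 1.57, PRR95 3.71, PRR59 0.93, TOC1 0.75, GI 1.89, FKF1 0.81, ZTL1 -0.50 and ZTL2 -0.28. Among photoreceptors and light signalling, the log2 difference (phyB minus WT, long days) was PHYB -0.42, PIL16 -2.32, PIL13 1.49, PIL15 -2.55, COP1 -0.91, PHYA -0.65, CRY1a -0.73, CRY1b -0.68, PIL11 1.56, PIL12 1.75 and PIL14 0.61. Among flowering repressors, the log2 difference (phyB minus WT, long days) was COL4 1.32. Among light harvesting genes, the log2 difference (phyB minus WT, long days) was CAB1R 1.94, LHCB2 1.71, LHCB5 0.59, LHCA4 1.23, LHCB3 1.15, CAB2R 3.28, LHCB6 0.69, LHCA1 0.64, LHCA2 0.70, LHCA3 2.66, LHCA5 -1.46 and LHCA6 -2.48. Among chlorophyll synthesis genes, the log2 difference (phyB minus WT, long days) was CHLM -1.79, CHLD -1.60, CHLI -1.23, PORA 2.54 and YGL1 -1.86. Among carbon fixation genes, the log2 difference (phyB minus WT, long days) was RBCS2 -1.51, RBCS4 -1.52 and RBCS3 -1.16. Among starch and sucrose genes, the log2 difference (phyB minus WT, long days) was GBSSII 1.29, AGPS2 -1.29, AGPL3 -1.42 and AGPL1 1.35. Among gibberellin genes, the log2 difference (phyB minus WT, long days) was GA2ox3 -1.65, GA2ox6 -1.79 and GID1 -0.49. Among cell wall loosening genes, the log2 difference (phyB minus WT, long days) was EXPB6 -2.55, EXPA4 -1.87, EXPB4 -2.59, EXPA2 -1.26 and EXPB3 -1.21. Among nitrogen assimilation genes, the log2 difference (phyB minus WT, long days) was NIA1 -1.80, GS2 -1.24, Fd-GOGAT -1.29 and NiR 0.69. Among defence genes, the log2 difference (phyB minus WT, long days) was NPR1 0.61 and WRKY45 1.52. Among cold and drought genes, the log2 difference (phyB minus WT, long days) was SALT -2.04. Among reference genes, the log2 difference (phyB minus WT, long days) was EEF1A -0.55. Of genes without a name in the files, it was Os06g0298200 -1.54.

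In short days the same test separated phyB from WT for 49 named genes, 31 positive and 18 negative. This count too follows from how genes were named, and 9.76% of all genes tested differed. Of these 49 calls, 26 passed under every such alternative. Among those lost, COP1 and GA2ox6 did not pass on leaving out any of several single libraries, and Os03g0782200 did not pass by DESeq2, on TPM or with the replicate block. Among clock genes, the log2 difference (phyB minus WT, short days) was PRR37 1.2, PRR73 1.53, PRR95 0.77, PRR59 0.62 and GI 1.23. Among flowering activators, the log2 difference (phyB minus WT, short days) was Ehd1 -2.88. Among flowering repressors, the log2 difference (phyB minus WT, short days) was COL4 2.38. Among photoreceptors and light signalling, the log2 difference (phyB minus WT, short days) was PIL16 -2.58, PIL13 1.62, PIL15 -1.33, COP1 -0.47, PIL11 1.70 and PIL12 1.75. Among light harvesting genes, the log2 difference (phyB minus WT, short days) was CAB1R 1.97, LHCB2 1.72, LHCB5 0.87, LHCA4 1.28, LHCB3 1.17, CAB2R 3.10, LHCB6 1.26, LHCA1 0.76, LHCA5 -0.83, LHCA6 -0.93, LHCB1 0.74 and LHCB4 0.67. Among chlorophyll synthesis genes, the log2 difference (phyB minus WT, short days) was CAO1 0.98, CHLH 0.99, CRD1 0.82, HEMA1 0.81, PORB 0.71, CHLM -0.58, CHLD -0.51 and YGL1 -1.03. Among starch and sucrose genes, the log2 difference (phyB minus WT, short days) was GBSSII 0.93, SSI 0.77 and AGPS2 -0.59. Among gibberellin genes, the log2 difference (phyB minus WT, short days) was GA3ox2 -3.12, GA2ox6 -2.97, KO2 0.76 and KAO 0.90. Among cell wall loosening genes, the log2 difference (phyB minus WT, short days) was EXPB6 -1.22, EXPB4 -1.33 and EXPB3 -0.60. Among nitrogen assimilation genes, the log2 difference (phyB minus WT, short days) was NIA1 -1.39, GS2 -0.49 and Fd-GOGAT -0.65. Among defence genes, the log2 difference (phyB minus WT, short days) was NPR1 0.83. Of genes without a name in the files, it was Os06g0298200 1.58 and Os03g0782200 2.71.

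Within phyB, the change differed between long and short days for 48 named genes, 15 positive and 33 negative. The naming rule fixes this count as well, and 16.0% of all genes tested differed. Of these 48 calls, 30 passed under every such alternative, and AGPS1 was among those lost, also with other size factors and on TPM. Among evening complex genes, the log2 difference (long minus short days) was ELF3-1 -0.53 and ELF3-2 -0.59. Among clock genes, the log2 difference (long minus short days) was LHY -1.85, PRR37 3.47, PRR73 4.29, PRR95 4.15, TOC1 1.56, GI 4.68, FKF1 4.55, ZTL1 -0.43 and ZTL2 -0.40. Among flowering activators, the log2 difference (long minus short days) was Ehd1 -1.99. Among flowering repressors, the log2 difference (long minus short days) was COL4 -1.25. Among photoreceptors and light signalling, the log2 difference (long minus short days) was PIL13 -0.90, PIL15 -0.78, CRY2 0.36, COP1 -0.47, PHYA -0.41, CRY1a -0.55, CRY1b -0.65, PIL11 -0.59 and PIL14 0.38. Among light harvesting genes, the log2 difference (long minus short days) was LHCA5 -0.76. Among chlorophyll synthesis genes, the log2 difference (long minus short days) was CAO1 -1.17, CHLH -0.69, CRD1 -1.03, HEMA1 -0.78 and CHLD -0.46. Among carbon fixation genes, the log2 difference (long minus short days) was RCA -1.27. Among starch and sucrose genes, the log2 difference (long minus short days) was GBSSII 0.70, AGPS2 -0.70, AGPL3 -0.69, BEIIa 0.82, AGPL1 1.70 and AGPS1 0.49. Among gibberellin genes, the log2 difference (long minus short days) was GA2ox3 -2.04, CPS1 -0.93, GA2ox6 2.3, GID1 -0.41 and KAO -0.93. Among cell wall loosening genes, the log2 difference (long minus short days) was EXPB6 -1.21. Among nitrogen assimilation genes, the log2 difference (long minus short days) was NIA1 -2.02, GS2 -0.76, Fd-GOGAT -0.62 and GS1;1 0.74. Among reference genes, the log2 difference (long minus short days) was ACT1 0.36. Of genes without a name in the files, it was Os06g0298200 -2.69 and Os03g0782200 -1.90.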

How the results depend on the processing

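Keeping ZT6 replicate 1 under its labels cut the genes whose change differed between phyB and WT to 843 in long days and 130 in short days, and those differing between photoperiods in phyB to 1875. With the replicate block the short day difference counted 3980 genes. The main fit did not pair libraries by replicate number. Within a comparison, deviations from the group mean correlated positively in all 8 same-number pairs (0.0163 to 0.227, 5 over 0.1). For 16 other pairs the range was -0.227 to 0.134. The 2 libraries of a ZT6 group have opposite deviations, so these pairs are not independent. Between comparisons, same-number pairs reached 0.329 (phyB ZT6 long days with WT ZT6 short days, replicate 2). The correlation was -0.194 for replicate 1 of phyB ZT18 long days with WT ZT18 short days. Same-number libraries thus shared some deviation, and its source was not tested. With the block, 12839 genes passed in phyB long days and 13913 in phyB short days. On TPM the ratio of phyB to WT median change was 1.25 in long days with either pseudocount and 1.04 in short days with a pseudocount of 1. The cause was not tested.

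Leaving out 1 library in turn gave 8873 to 11794 genes in phyB long days, 9835 to 12950 in phyB short days, 8834 to 11799 in WT long days and 11031 to 13293 in WT short days. The difference between phyB and WT counted 3718 to 5292 genes in long days and 1647 to 2585 in short days, with 1674 without phyB ZT6 replicate 2 and 1647 without replicate 3 of short days. The difference between photoperiods counted 2805 to 4462, with 2805 without phyB ZT6 replicate 2 of short days. The size ratio ran from 0.970 to 1.11 in long days and from 0.891 to 1.02 in short days.

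Log2 changes in phyB that turned sign on TPM, with a pseudocount of 1 and then 0.1, were in long days ELF3-1 (0.32, 0.33), MADS18 (0.097, 0.098), MADS56 (0.015, 0.016), PHYA (0.18, 0.19), PIL11 (0.23, 0.25), YGL1 (0.056, 0.057), NiR (0.39, 0.39) and ACT1 (0.086, 0.087). In short days they were ZTL1 (0.23, 0.23), ZTL2 (0.23, 0.24), MADS18 (0.055, 0.055), CRY1a (0.009, 0.0091), CRY1b (0.30, 0.30) and EEF1A (0.23, 0.23). The long day difference of Os03g0782200 was -2.15 with a pseudocount of 1. With replicate 1 kept, the sign turned for LUX (-0.24) and MADS18 (0.16) in short days and MADS18 in long days (0.018). The differences between phyB and WT then turned for PIL16 (1.06), PIL15 (0.99), GA2ox6 (1.54) and NPR1 (-0.039) in long days, and for PIL16 (0.56), PIL15 (1.68), GA2ox6 (1.75), Ehd1 (0.059) and Os06g0298200 (-1.14) in short days. ELF4a in phyB short days ran from -0.36 to 0.40 as single libraries were left out, the highest without phyB ZT18 replicate 2. Levels below about 1 CPM rest on few counts.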
